A study of Mus musculus with 6 samples.

Results

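Autophagy delivers cell contents to the lysosome for breakdown, and the genes of this route were followed in the liver of old Itpr2 knockout mice. Itpr2 encodes a calcium channel of the endoplasmic reticulum that opens on inositol trisphosphate. The set holds 52 named genes of autophagosome initiation, membrane supply, lipidation, cargo capture, the TFEB family of transcription factors and the lysosome, out of 32095 genes on the array. All 52 were found on the array, by 67 probes whose accessions map to their symbols. The set is defined by these names, and its rule uses no measured value.

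Liver RNA of C57Bl/6 mice aged 23 months was measured on 1-colour Agilent arrays (Cy3), 1 array per mouse. There were 3 Itpr2 knockout mice (KO) and 3 wild-type mice (WT), described in the series design as independent animals. All were untreated mice of a survival cohort, kept on standard diet in a specific pathogen-free facility. The sex of the mice, the part of Itpr2 that is deleted and whether the wild-type mice were littermates are not stated in the labels. Levels below are on a log2 scale with each array's 75th percentile set to 0, and a change is the mean of the knockout minus the mean of the wild type. Levels of different genes come from different probes and are not set against each other.

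Autophagy begins when the ULK1 kinase complex activates a lipid kinase complex built around Beclin 1 and VPS34, which marks a membrane that grows with lipid from ATG2 and ATG9. Ubiquitin-like conjugation then couples proteins of the ATG8 family (the LC3 and GABARAP proteins) to that membrane, receptors such as p62 bring cargo, and the closed vesicle fuses with a lysosome whose hydrolases degrade its content. TFEB and TFE3 switch on many of these genes when nutrients are scarce. In liver the route supplies amino acids and lipid during fasting, and calcium release through inositol trisphosphate receptors is one of the signals known to act on it.

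Each array had 57.5% to 59.5% of its probes well above background, and no spot was saturated. The targeted gene Itpr2 had levels of 3.04, 3.07 and 3.08 in the wild type and of 2.54, 2.38 and 2.20 in the knockout, a change of -0.69 ± 0.13 (SE) with a limma adjusted p of 0.810. The groups did not overlap, and the exact permutation p (two-sided) was 0.1, the smallest that 3 against 3 arrays allow. Its single probe still gave signal in the knockout, and where it lies relative to the deletion is unknown here. All 10 hepatocyte markers were well above background on every array. Striated muscle RNA was present on WT 1 and KO 3, with summed marker signals of 88.8 and 99.1 against 0.217 to 0.262 on the other 4 arrays. WT 1, WT 2 and KO 1 lay on slide 1 and the other 3 arrays on slide 2.

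None of the autophagy and lysosome genes differed between genotypes at an adjusted p under 0.05. Testing required a probe well above background on all 3 arrays of either genotype, and 51 of the 52 members passed, each well above background on all 6 arrays. The exception was Atg4a, a protease of ATG8 proteins, whose probe exceeded background clearly on 1 knockout array and 0 wild-type arrays. Of the 51, 0 passed the threshold by limma, where 0.00556% of the 17996 genes tested passed. An unadjusted p under 0.05 was found for 5 members (9.80%), where 6.13% of all genes had one. In 4 of them the mean was higher in the knockout and in 1 lower, where 3.47% and 2.66% of all genes were so. With median centring the split was 1 higher and 1 lower for the members, and 274 higher and 627 lower for all genes. With plain normexp background correction, described with the slides, 2 members were higher and 4 lower. The share of all genes was not counted for that setting. That share was larger than in the main fit, since an unadjusted limma p of 0.0454 (Atg9a) had an adjusted p of 0.146. The count under plain normexp is therefore not read as a result about the members. The genotypes did not overlap for 9 members (17.6%), where 12.1% of all genes did not overlap. The knockout was the higher group for 7 of the 9 and the lower for 2, where 6.95% and 5.18% of all genes were so. The lowest adjusted p among members was 0.810.

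The median change of the members was 0.046, beside 0.022 over all genes tested, and 31 of 51 had a higher mean in the knockout and 20 a lower one. With arrays centred on their median in place of the 75th percentile the split was 23 higher and 28 lower, with medians of -0.035 for the members and -0.059 for all genes. Quantile normalization gave 28 higher and 23 lower, with medians of 0.029 and -0.0019. Of all genes tested 54.1% had a higher mean in the main fit, 39.4% with median centring and 49.7% with quantile normalization. The counts of single roles below stand beside the same shares. The 95% interval of the change had a median half-width of 0.35 on the log2 scale, and 48 of the 51 intervals lay within a 2-fold change in either direction. The 3 others belonged to Ulk1, Atg2b and Psap.

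**Figure D1:**
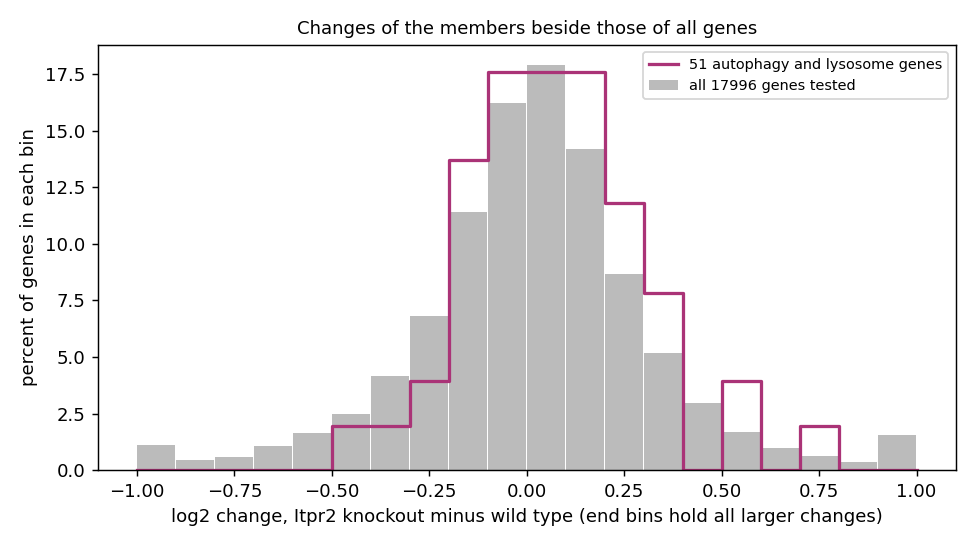
Percent of genes in bins of log2 change (knockout minus wild type), for the 51 measured autophagy and lysosome genes (line) and all 17996 genes tested (grey bars), with end bins holding all larger changes. The members spread from -0.47 to 0.72 around a median of 0.046.

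Scores of single arrays over all members overlapped between genotypes. The score of an array, the median over members of its level minus the gene's mean, was -0.041, -0.037 and -0.014 on the wild-type arrays and 0.051, 0.035 and -0.050 on KO 1, KO 2 and KO 3. KO 3 lay below all wild-type arrays while KO 1 and KO 2 lay above them. On KO 3 the 34 measured genes upstream of the lysosome had a score of -0.13 and the 17 lysosome genes one of 0.028. KO 1 held the highest level of 20 of the 51 members, whereas WT 2 and KO 3 each held the lowest level of 15. Neutrophil markers were also uneven between arrays, with summed signals of 60.5 on KO 1 and 38.5 on KO 3. The other 4 arrays had 5.85 to 15.9, with the lowest on KO 2. All 7 measured markers had a higher mean in the knockout, with a median of 0.75 and 0 at an unadjusted limma p under 0.05. Their median change was 2.52 within slide 1 but -0.26 within slide 2. Hepatocyte markers were higher in mean for 9 of 10, with a median of 0.20 and summed signals of 1360 to 1600 in the wild type and 1400 to 1940 in the knockout. The part of either cell type in the members' values was not tested. The spread between arrays was wider in the knockout for 35 of 51 members (68.6%), close to the 71.6% of all genes.

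The ULK complex starts autophagy, and the kinase gene Ulk1 had the highest change of all members. Its levels were 2.90, 2.86 and 2.97 in the wild type and 4.04, 3.30 and 3.54 in the knockout. Every knockout array lay above every wild-type array, and KO 1 was the highest. The change of Ulk1 was 0.72 ± 0.20 (SE), a fold of 1.64, with an unadjusted limma p of 0.0112 and an adjusted p of 0.810. Without the muscle arrays WT 1 and KO 3 it was 0.76 with an unadjusted p of 0.0526. Rb1cc1, which encodes the scaffold FIP200 of the same complex, had levels of 0.017, -0.20 and 8e-05 in the wild type and 0.068, 0.093 and 0.14 in the knockout. These groups did not overlap either, but the gap was narrow and the change of 0.16 ± 0.12 (SE) had an unadjusted p of 0.237. The other probe of Rb1cc1 gave a change of 0.39, also without overlap. Ulk2, a paralogue of Ulk1, and Atg13, an adaptor of the kinase, had overlapping groups and changes of 0.18 and -0.064.

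The class III PI3-kinase complex makes the lipid that recruits later factors, and 0 of its 6 members had an unadjusted p under 0.05. Atg14, the subunit that directs the complex to autophagosomes, had levels of 0.31, -0.022 and 0.46 in the wild type and 0.88, 0.55 and 0.45 in the knockout. Only KO 3 lay inside the wild-type range, and the change was 0.38 ± 0.19 (SE). Pik3c3, the catalytic subunit VPS34, had levels of -1.28, -1.33 and -1.18 in the wild type and -1.03, -0.85 and -1.29 in the knockout, with a change of 0.21 ± 0.15 (SE). Its other probe gave 0.25, with no overlap of the genotypes. The remaining subunits and regulators, Becn1, Pik3r4, Uvrag and Ambra1, had changes between -0.19 and 0.13, and Uvrag had the tightest values, from 1.57 to 1.63 over all 6 arrays.

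All 5 genes of membrane supply had a higher mean in the knockout, 4 of 5 with arrays centred on their median, and none was called. Atg9a, which encodes the membrane protein whose vesicles seed the autophagosome, had levels of -0.89, -1.43 and -1.33 in the wild type and -0.68, -0.54 and -0.91 in the knockout. KO 3 and WT 1, the arrays with striated muscle RNA, nearly coincided, so the groups overlapped by that pair alone. Without both arrays the Atg9a change was 0.77, and Atg9a and Map1lc3b were the only members at an unadjusted limma p under 0.05. The part of muscle RNA in these values was not tested, and the share of all genes under 0.05 without both arrays was not counted. The change of Atg9a was 0.51 ± 0.19 (SE), a fold of 1.42, with an unadjusted limma p of 0.0346 and an adjusted p of 0.810. Atg2a, a lipid transfer protein, had levels of -0.30, -0.25 and -0.36 in the wild type and -0.14, -0.11 and 0.03 in the knockout, so its groups did not overlap, and its change was 0.23 ± 0.12 (SE). Its paralogue Atg2b had -2.39, -2.07 and -2.14 in the wild type and -0.87, -2.05 and -2.66 in the knockout. The level on KO 1 set the Atg2b mean of the knockout, and without that array the change of 0.34 became -0.16. Wipi1 and Wipi2, which read the lipid mark, had changes of at most 0.16.

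**Figure D2:**
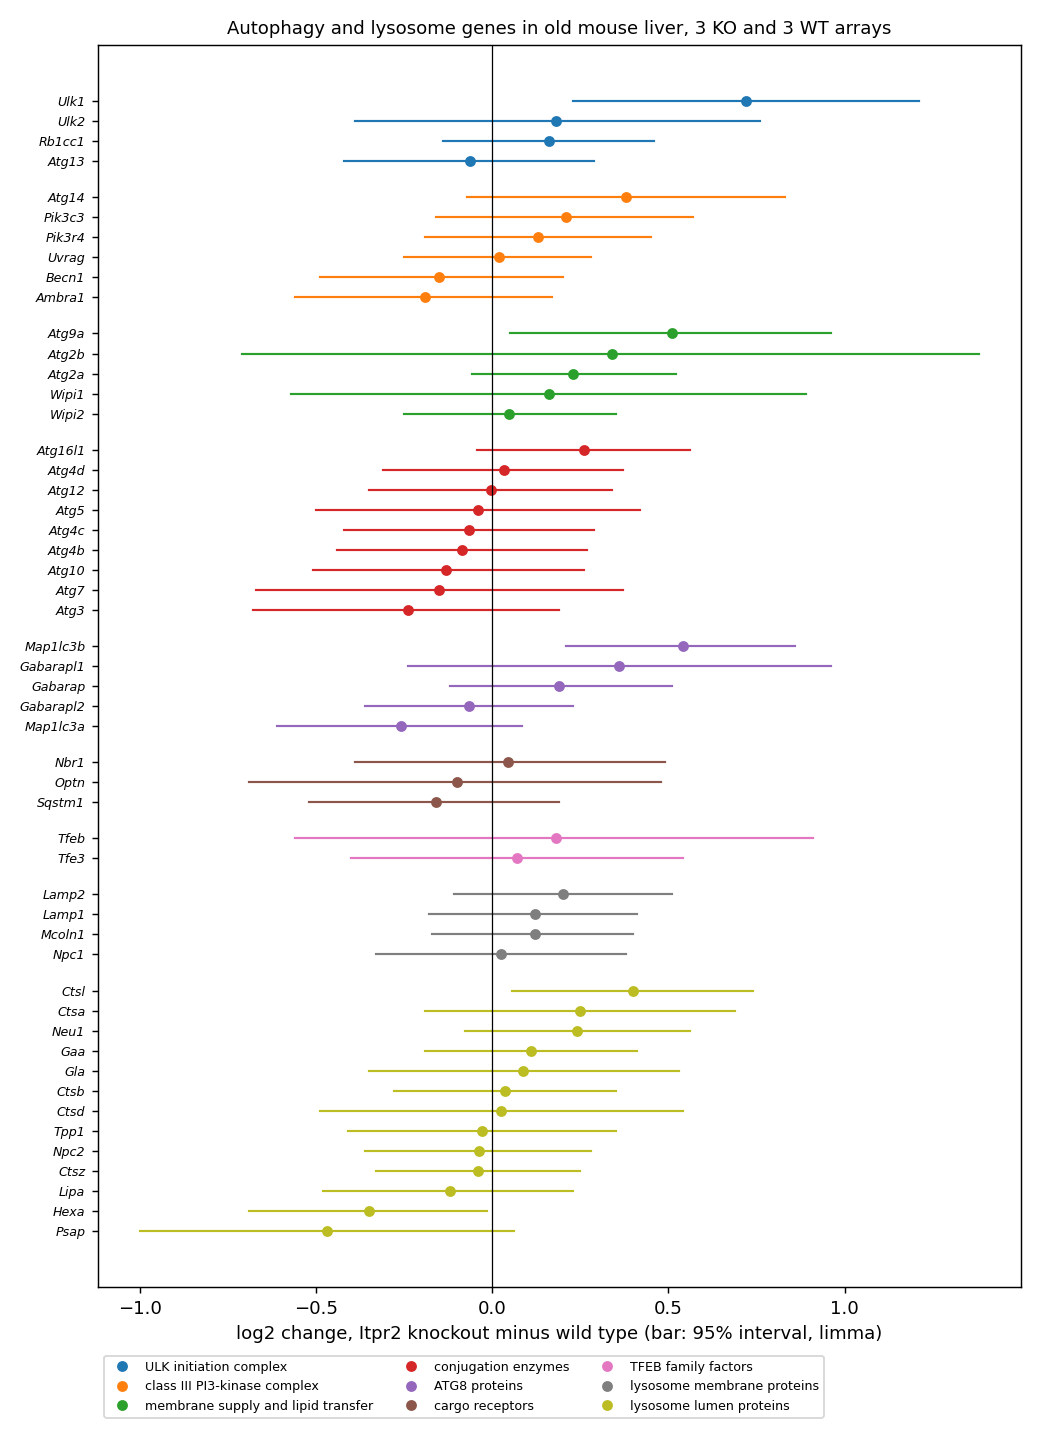
Change of each of the 51 measured members (points, log2 of knockout over wild type) with its 95% interval from limma (bars), by role. The intervals of Ulk1, Atg9a, Map1lc3b and Ctsl lie above 0 and that of Hexa below 0, before any adjustment for the number of genes tested.

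The conjugation enzymes had lower means more often than higher ones, at 7 of 9 measured, with a median of -0.067 and 0 members at an unadjusted p under 0.05. With quantile normalization 6 were lower, and with median centring 8, where 10897 of all 17996 genes tested were also lower. Atg16l1, which places the conjugation machinery on the membrane, was the exception with the clearest values. Its levels were -0.54, -0.38 and -0.55 in the wild type and -0.14, -0.33 and -0.22 in the knockout, without overlap, and its change was 0.26 ± 0.13 (SE). Atg3, the enzyme that transfers ATG8 proteins to lipid, had levels of 2.73, 2.49 and 2.58 in the wild type and 2.25, 2.69 and 2.14 in the knockout. KO 2 lay inside the wild-type range for Atg3 while KO 1 and KO 3 lay below it, and the change was -0.24 ± 0.18 (SE). Both probes of Atg7, the activating enzyme, gave lower means, at -0.15 and -0.24. Atg5 and Atg12, which are joined to each other, and the proteases Atg4b, Atg4c and Atg4d had changes between -0.086 and 0.034. For Atg10, another transferase, the probe that stands for the gene gave -0.13 and the other 0.51, the widest gap among the 15 members with a pair of measured probes. Over those 15 members the probes had the same sign for 10, with a median gap of 0.092.

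The ATG8 family, which coats the autophagosome, had changes in both directions. Map1lc3b, the LC3 protein used as the common marker of autophagosomes, had levels of 3.36, 3.21 and 3.31 in the wild type and 3.97, 3.86 and 3.66 in the knockout. All knockout arrays lay clearly above the wild-type range. Its change was 0.54 ± 0.14 (SE), a fold of 1.45, with the smallest unadjusted limma p of all members, 0.00636, and an adjusted p of 0.810. Map1lc3a, a close paralogue, went the other way, with 1.84, 1.68 and 1.43 in the wild type and 1.40, 1.37 and 1.39 in the knockout. The knockout values were nearly equal and lay just under the lowest wild-type array, WT 3, and the change was -0.26 ± 0.14 (SE). Gabarapl1, which serves later steps of vesicle closure, had 6.48, 6.64 and 6.90 in the wild type and 6.55, 7.42 and 7.15 in the knockout, a change of 0.36 ± 0.25 (SE). Here KO 2 and KO 3 lay above the wild type and KO 1 within it. Without KO 1 the Gabarapl1 change was 0.61, with an unadjusted limma p of 0.0201, and without KO 2 it was 0.17. Gabarap and Gabarapl2 had changes of 0.19 and -0.066. Probe sequences are not in the tables used, so signal shared between paralogues was not checked.

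**Figure D3:**
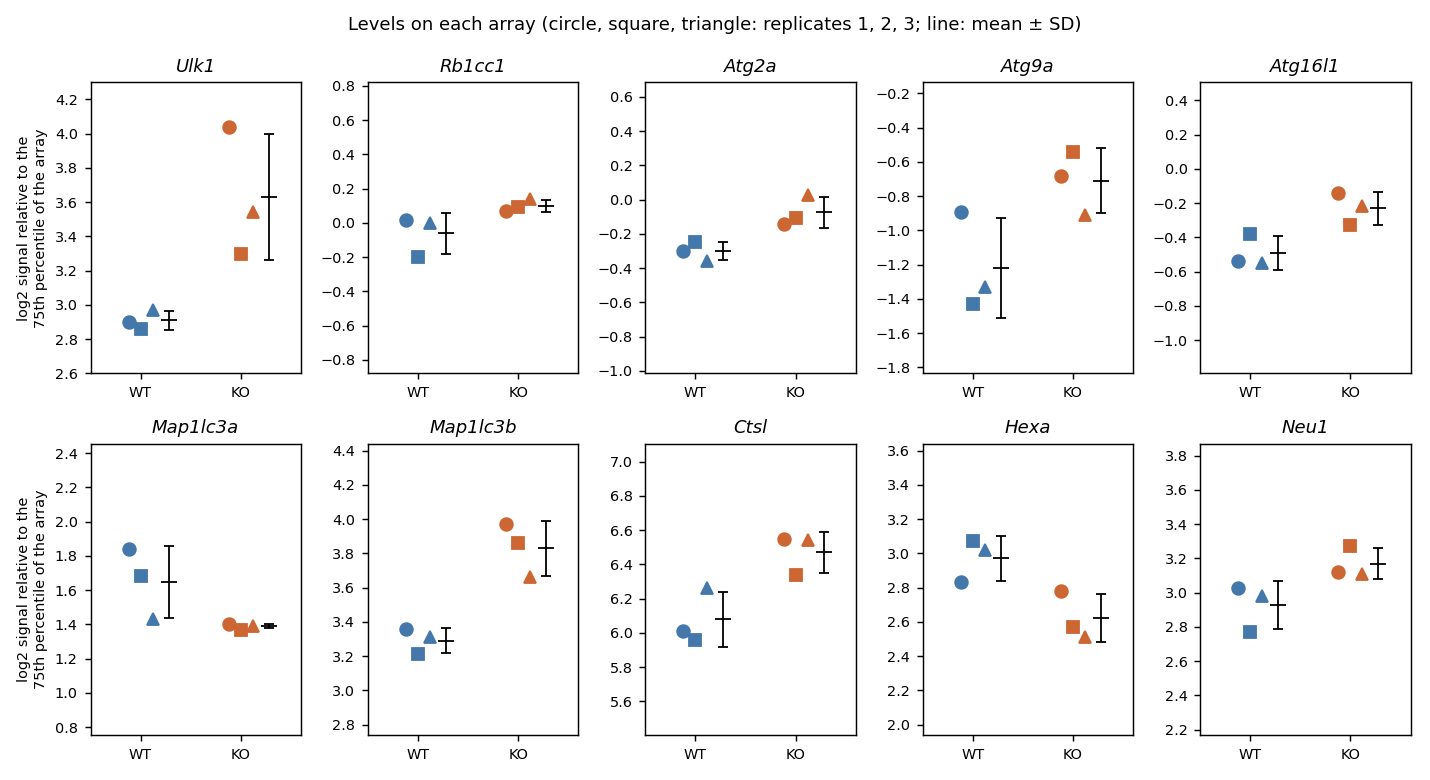
Levels (log2 signal relative to the 75th percentile of the array) on each of the 3 wild-type and 3 knockout arrays for the 10 members with an unadjusted limma p under 0.05 or no overlap of the genotypes, with the mean ± SD beside each group. Map1lc3b spans 3.21 to 3.36 in the wild type and 3.66 to 3.97 in the knockout. The groups of Atg9a meet at WT 1 and KO 3, the arrays with striated muscle RNA.

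Cargo receptors link ubiquitin-tagged material to LC3, and none of the 3 stood apart. Sqstm1, which encodes p62 and is also a target of the antioxidant factor NRF2, had levels of 2.48, 2.69 and 2.84 in the wild type and 2.63, 2.50 and 2.39 in the knockout. The groups overlapped and the change was -0.16 ± 0.15 (SE). Optn, a receptor for bacteria and mitochondria, had levels of -1.37, -1.16 and -1.12 in the wild type and -1.73, -0.82 and -1.41 in the knockout, with a change of -0.10 ± 0.24 (SE). The sign of the Optn change turned to 0.10 without KO 1. Nbr1 had a change of 0.046.

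The RNA of the TFEB family factors in the set overlapped between genotypes. Tfeb had levels of -2.10, -2.17 and -3.01 in the wild type and -2.51, -2.40 and -1.83 in the knockout, a change of 0.18 ± 0.30 (SE) that was -0.11 without WT 3 and -0.034 without KO 3. Tfe3 had 2.36, 2.48 and 2.23 in the wild type and 2.80, 2.32 and 2.16 in the knockout. KO 1 was the highest array for Tfe3 and KO 3 the lowest, and the change of 0.07 ± 0.20 (SE) was -0.011 with arrays centred on their median. Mitf, a factor of the same family outside the set, had 0.53, 0.47 and 0.54 in the wild type and 0.33, -0.26 and -0.25 in the knockout. Its groups did not overlap, and the change was -0.57 ± 0.19 (SE), with an unadjusted limma p of 0.0214 and an adjusted p of 0.810. Transcript levels do not show how much of these factors is in the nucleus, which is the step known to control them.

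TFEB binds E-box letters, CACGTG, best known with T before and A after them, and promoters of the members were read for them. The windows are those of RefSeq on GRCm38.p6, from 250 bases before to 50 after a start site, and 44 of the 52 members had one. Each of the letters searched reads the same on both strands, and TCACGTGA holds CACGTG within it. CACGTG was found in 11 of the 44 (25%), against 8.09% of 27025 genes with a window, and TCACGTGA in 5 (11.4%), against 1.12%. Other genes of the pathway, listed below, had similar shares, with CACGTG in 21 of 86 (24.4%) and TCACGTGA in 8 (9.3%). The letters are thus not particular to the set. The longer form with a further G before and C after was found in 0 of the 44, against 0.37% of all genes, and in 4 of 86 other genes of the pathway. The stretches below, 80 bases each before the start site and on the strand of the gene, show the members with TCACGTGA together with Lamp1, which has CACGTG 4 times, and Ctsl, the one member of this group with an unadjusted p under 0.05. Capitals mark CACGTG or TCACGTGA.
Mcoln1, chr8:3500433-3500512, + strand: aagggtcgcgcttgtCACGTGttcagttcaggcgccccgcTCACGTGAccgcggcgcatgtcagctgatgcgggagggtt
Ctsa, chr2:164833693-164833772, + strand: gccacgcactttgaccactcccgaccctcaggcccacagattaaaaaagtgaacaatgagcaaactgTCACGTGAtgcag
Ctsd, chr7:142387887-142387966, - strand: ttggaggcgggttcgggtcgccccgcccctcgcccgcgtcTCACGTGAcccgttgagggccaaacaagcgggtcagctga
Gla, chrX:134601161-134601240, - strand: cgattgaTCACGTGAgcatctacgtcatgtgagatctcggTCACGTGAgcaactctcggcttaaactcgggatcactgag
Atg3, chr16:45158717-45158796, + strand: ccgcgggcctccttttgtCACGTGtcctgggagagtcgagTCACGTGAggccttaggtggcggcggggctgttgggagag
Lamp1, chr8:13159081-13159160, + strand: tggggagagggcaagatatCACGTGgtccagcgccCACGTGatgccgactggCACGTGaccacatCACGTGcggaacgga
Ctsl, chr13:64370691-64370770, - strand: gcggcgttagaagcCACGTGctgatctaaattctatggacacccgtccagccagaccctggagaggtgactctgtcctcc

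The 11 members with CACGTG had a median change of 0.11, with 8 higher and 3 lower means, but -0.020 with 5 higher and 6 lower under quantile normalization and 0.029 with 7 higher and 4 lower under median centring. All genes tested had a median of 0.022, and 54.1% of them had a higher mean. The 5 with TCACGTGA had a median of 0.088, with 4 higher and 1 lower, and of -0.020 with 2 higher and 3 lower under quantile normalization. The latter were Ctsa at 0.25, Mcoln1 at 0.12, Gla at 0.088, Ctsd at 0.024 and Atg3 at -0.24, none with an unadjusted p under 0.05. Ctsa had 0.082 without KO 1, and Atg3 had -0.41 without KO 2 and -0.14 without KO 3. The values of Gla and Ctsd were so near 0 that their sign turned with quantile normalization, to -0.020 and -0.039. Ctsa, Ctsd and Gla are named for their promoters, after their values were seen.

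Membrane proteins of the lysosome had close values on all arrays. Lamp2, a structural protein of the membrane, had levels of 4.88, 4.78 and 4.94 in the wild type and 4.92, 5.12 and 5.16 in the knockout. KO 1 lay within the wild-type range and the other knockout arrays above it, and the change was 0.20 ± 0.13 (SE). A further Lamp2 probe, listed under another RefSeq transcript, gave -0.012. Mcoln1, the calcium channel of the lysosome, had 3.18, 3.03 and 3.04 in the wild type and 3.26, 3.18 and 3.16 in the knockout, and a change of 0.12 ± 0.12 (SE). Lamp1, another structural protein, and Npc1, which exports cholesterol, had changes of 0.12 and 0.026, and all 4 means were higher in the knockout, 3 of 4 under either other scaling.

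Lysosomal enzymes and their partners split, with 7 of 13 means higher in the knockout, 4 of 13 with quantile normalization and 5 of 13 with median centring. Ctsl, the protease cathepsin L, had levels of 6.01, 5.96 and 6.26 in the wild type and 6.55, 6.34 and 6.54 in the knockout. All knockout arrays lay above the wild type, KO 2 and WT 3 being the nearest, and the change was 0.40 ± 0.14 (SE), a fold of 1.32. Its unadjusted limma p was 0.0287 and its adjusted p 0.810. Neu1, a sialidase, had 3.03, 2.77 and 2.98 in the wild type and 3.12, 3.27 and 3.11 in the knockout, without overlap, and a change of 0.24 ± 0.13 (SE). Ctsb and Ctsz, further cathepsins, had changes of 0.035 and -0.041. Gaa, the acid glucosidase that degrades glycogen, had 0.11, but its other probe gave -0.19, and the other probe of Ctsd gave -0.34.

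Hexa and Psap both serve sphingolipid breakdown. Hexa, the alpha subunit of hexosaminidase, had levels of 2.83, 3.07 and 3.02 in the wild type and 2.78, 2.57 and 2.51 in the knockout. The groups did not overlap, KO 1 and WT 1 being the nearest, and the change was -0.35 ± 0.14 (SE), 1.28-fold lower, with an unadjusted limma p of 0.0432 and an adjusted p of 0.810. Psap, the precursor of the saposins that assist sphingolipid hydrolases, had the lowest change of the set over all 6 arrays. Its levels were 4.25, 4.49 and 4.66 in the wild type and 4.33, 3.60 and 4.06 in the knockout, with a change of -0.47 ± 0.22 (SE). KO 1 lay inside the wild-type range of Psap and KO 2 was far below it. The Psap change was -0.043 within slide 1 and -0.83 within slide 2, and without KO 2 it was -0.27, closer to 0 than the -0.41 of Atg3, the -0.35 of Optn and the -0.33 of Hexa. The 5 members Ctsd, Gla, Lipa, Npc2 and Tpp1, which digest protein, glycolipid and cholesterol ester or bind cholesterol, had changes between -0.12 and 0.088. Psap, Atg2b, Atg10 and Gabarapl1 are named outside the rule, after their values were seen.

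Kupffer cells, the macrophages of the liver, are rich in lysosomes, and their markers had lower means in the knockout. All 11 measured of 12 listed markers were lower, with a median of -0.55 and 5 at an unadjusted limma p under 0.05, where 6.13% of all genes had one and the adjusted p of these 5 was 0.810. With the slide as a block only Cd5l, at 0.0325, stayed under 0.05, and the other 4, Folr2, C1qa, C1qc and Adgre1, had 0.0953, 0.0740, 0.0933 and 0.0898. With the replicate block all 5 stayed under 0.05, from 0.00861 for C1qa to 0.0452 for Folr2. The share of all genes under 0.05 was not counted with either block. The summed signal of the Kupffer cell markers ranged from 174 to 329 in the wild type and from 133 to 180 in the knockout. The defining markers Clec4f and Timd4 were well above background on all 6 arrays. Monocyte and macrophage markers summed to 33.9 to 48.8 and to 21.5 to 35.9. In bulk tissue, fewer cells of a type and less RNA per cell cannot be told apart. The part of these cells in the values of Hexa and Psap was not tested.

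Within each slide the members at an unadjusted p under 0.05 kept their sign. For Ulk1, Map1lc3b, Ctsl and Hexa no other sign was possible, since their groups did not overlap. Only Atg9a could have turned. The change of Ulk1 was 1.16 within slide 1, where KO 1 is the only knockout array, and 0.45 within slide 2, where WT 3 is the only wild-type array. Map1lc3b had 0.68 and 0.45, Atg9a 0.48 and 0.60, Ctsl 0.56 and 0.18, and Hexa -0.17 and -0.47. With the slide as a block 3 members, Ulk1, Map1lc3b and Atg9a, had an unadjusted limma p under 0.05, and Ctsl and Hexa had 0.0641 and 0.0912. The share of all genes under 0.05 was not counted with that block, so the 3 are not read as a result about the members. The median change of all members was 0.094 within slide 1, above the -0.017 of all genes, and 0.0088 within slide 2, below the 0.031 of all genes. With normexp background correction the change was 0.019 for Ulk1, -0.14 for Map1lc3b and -0.27 for Ctsl. On KO 1 and KO 2 the lowest signal minus local background was -9340 and -77200 intensity units, where no other array was below -92. With such low differences floored, the same correction gave 0.64, 0.45 and 0.28 for these genes.

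**Figure D4:**
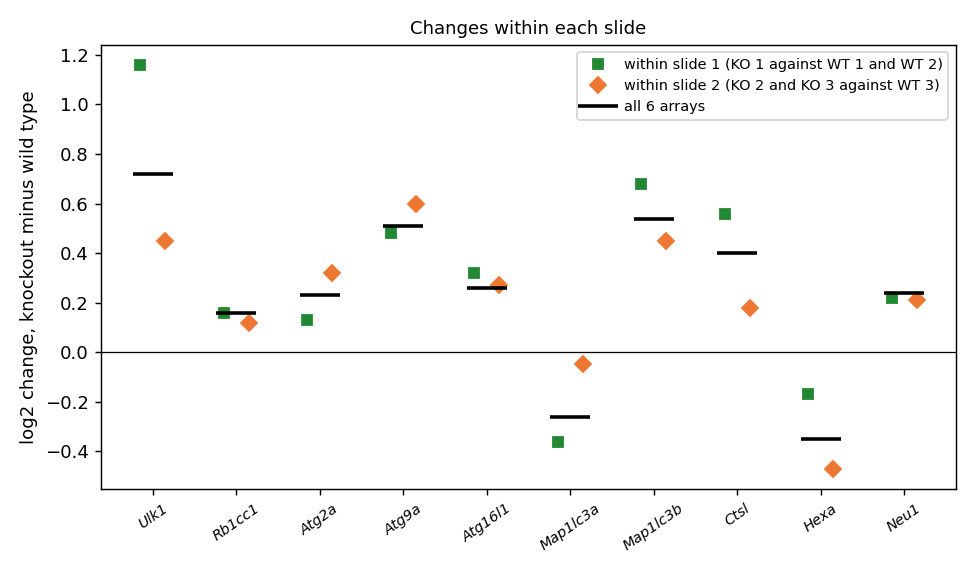
Log2 change (knockout minus wild type) within slide 1 (squares), within slide 2 (diamonds) and over all 6 arrays (black lines) for the 10 members with an unadjusted limma p under 0.05 or no overlap of the genotypes. Ulk1 differed most between slides, at 1.16 and 0.45, and Atg16l1 had 0.32 and 0.27. Where the groups did not overlap, the sign within a slide could not differ from that over all 6 arrays.

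Other genes of the same pathway were read from a wider list. Of 109 such genes 108 were measured, 0 passed the adjusted threshold, and 2 with a higher and 3 with a lower mean had an unadjusted limma p under 0.05 (4.63%, against 6.13% of all genes). Their median change was -0.020. All 17 subunits of the vacuolar ATPase, the proton pump that acidifies the lysosome, were measured, with a median of -0.034, changes from -0.32 to 0.36 and 0 at an unadjusted p under 0.05.

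The 5 genes with an unadjusted p under 0.05 were Mitf, given above, and 4 others. Retreg1, a receptor for autophagy of the endoplasmic reticulum, had 0.51, 0.33 and 0.70 in the wild type and 0.81, 0.92 and 1.15 in the knockout, a change of 0.45 ± 0.16 (SE). Atg16l2, a paralogue of Atg16l1, had -0.16, -0.19 and -0.59 in the wild type and 0.95, -0.046 and 0.25 in the knockout, with a change of 0.70 ± 0.28 (SE) and its highest value on KO 1. Neither of these pairs of groups overlapped.

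Arsb, a lysosomal sulfatase, had -2.40, -2.43 and -2.53 in the wild type and -2.78, -2.76 and -2.86 in the knockout, a change of -0.35 ± 0.12 (SE). Laptm5, a lysosomal membrane protein of blood cells, had 0.82, 0.71 and 0.93 in the wild type and 0.42, -0.29 and 0.45 in the knockout. Its change was -0.63 ± 0.22 (SE), without overlap. The part of the Kupffer cells, whose markers also had lower means, was not tested. The limma adjusted p of all 5 was 0.810. Mitf, Atg16l2, Arsb and Laptm5 each had a further measured probe, whose change is not given here. With the slide as a block the unadjusted p was 0.0446 for Mitf and 0.00274 for Atg16l2, whereas Retreg1 had 0.0525, Laptm5 0.0640 and Arsb 0.050.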

How the data were processed

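The authors deposited 6 scanner tables of intensity values. Agilent Feature Extraction made them, with 11.5.1.1 named in the headers and 10.7.3.1 in the submitters' processing notes. Their processed intensity is background-subtracted and not scaled between arrays. The deposited matrix of log2 values, centred per probe with scaling not stated, was an alternative, and its columns for KO 2 and KO 3 matched the scanner tables of KO 3 and KO 2. Its column medians were 0.00207, -0.0094, 0.00497, -0.0127, 0.0106 and 0.00617 for WT 1 to WT 3 and KO 1 to KO 3.

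The processed intensity was put on a log2 scale after division by each array's 75th percentile. Of 44397 spots, 1377 control spots and 818 outlier spots over the 6 arrays were left out, and spots of a probe were averaged. Of 39429 probes, 28324 were given 1 symbol, 0 several and 11105 none, through accessions in a RefSeq table of GRCm38.p6. The array design names mm9, and no probe coordinates are given. The 22302 probes well above background on all 3 arrays of a genotype were kept, and of several probes of a gene the one with the highest mean level was used.

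Genotypes were compared with limma 3.58.1 (lmFit and eBayes, two-sided, R 4.3.3), with Benjamini-Hochberg adjustment over 17996 genes and a threshold of 0.05. The fit was tested on simulated data. The labels and design text describe separate animals, and precision is limited by their number. Members, lists and tests were chosen with earlier results of these data known. Besides genes named as chosen after their values were seen, the text gives full values for Itpr2, members with an unadjusted p under 0.05 or no overlap, the 2 members of each of the 9 roles with the smallest p, and other pathway genes with an unadjusted p under 0.05. Alternatives covered background correction (normexp on the median signal, since the tables hold no mean signal, with an offset of 50), scaling, filters, probes, outlier spots, slide, replicate number, the authors' matrix and single arrays left out. The floored normexp correction, at the 0.1 percentile of each array, and the omission of WT 1 and KO 3 were added after seeing the data.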

Additional observations from a re-analysis of the deposited data

How the results depend on the processing

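Over 18 alternative settings 0 members passed the adjusted threshold, and the lowest adjusted p of a member in the text was 0.139. The 1 gene called among all genes was not a member. That count was 0 with either normexp correction, when all 6 arrays had to be above background, with the replicate block and without the muscle arrays, and from 0 to 2 with 1 array left out. The count of members at an unadjusted p under 0.05, 5 in all, was 2 with median scaling, 3 with the slide as a block, 2 without the muscle arrays and from 2 (without WT 2) to 5 (without KO 1) with 1 array left out. Without WT 3 or KO 3 it was 3. Of these alternatives the share of all genes was counted only with median scaling. The other counts are therefore not read as results about the members. The median change was -0.40 with plain normexp, -0.035 with median scaling and 0.094 within slide 1, and ran from 0.035 to 0.10 with 1 array left out, highest without KO 2.

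Signs turned under some setting for 14 of the 26 members given full values or named after their values were seen. The other members were compared only between scalings. Among these, Lamp1 at -0.035, Ctsb at -0.054 and Atg12 at 0.0084 turned with quantile normalization. Ctsb at -0.046, Atg4d, Uvrag, Wipi2, Nbr1 and Npc1 turned with median scaling. Plain normexp gave -0.14 for Map1lc3b, 0.47 for Optn, -0.57 for Tfe3, -0.39 for Lamp2, -0.55 for Mcoln1, -0.27 for Ctsl, -0.43 for Neu1, 0.15 for Atg10, -0.26 for Gabarapl1, -0.42 for Ctsa, -0.54 for Ctsd and -0.59 for Gla. With the lowest differences floored, Optn at 0.016 and Gla at -0.044 still had the turned sign, and the other signs turned by plain normexp did not. Quantile normalization gave -0.039 for Ctsd and -0.020 for Gla, and median scaling -0.011 for Tfe3 and -0.057 for Ctsd. The mean of a gene's probes gave 0.19 for Atg10 and -0.16 for Ctsd. The slide as a block gave -0.017 for Ctsd and -0.00027 for Gla, and omission of the muscle arrays -0.26 and -0.13. With 1 array left out the changes ran from -0.35 to 0.10 for Optn, -0.11 to 0.34 for Tfeb, -0.12 to 0.20 for Tfe3, -0.16 to 0.74 for Atg2b, -0.23 to 0.0013 for Atg10, -0.20 to 0.18 for Ctsd and -0.035 to 0.22 for Gla. The cause of these turns was not tested.

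Deviations of same-numbered wild-type and knockout arrays had correlations of -0.19, 0.042 and -0.28. These values gave no sign of pairing by replicate number, but so few correlations cannot exclude it. The numbers of some knockout arrays also differ between the deposited matrix and the scanner tables. With the replicate block the median change was 0.046, and 4 members had an unadjusted limma p under 0.05. The share of all genes was not counted for that block either.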
